A study of Sus scrofa with 6 samples.

Results

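The acyl-CoA and fatty acid oxidation genes described here are 44 pig genes, taken by their symbols from 25322 gene IDs, of which 11804 carried a symbol. The rule on symbols was set with earlier results of these data known. A gene was taken when its symbol starts with ACAA, ACAD, ACOT, ACOX, ACSL, ACSM, ACSS, ACSF, CPT1, CPT2, HADH, ECH, ECI, ETFA, ETFB or ETFDH. The choice rests on names, so it also holds enzymes outside fatty acid oxidation, such as ACSS2, which makes acetyl-CoA in the cytosol, and ECHDC1, which removes ethylmalonyl-CoA. By role the genes comprise 12 acyl-CoA synthetases, 4 carnitine palmitoyltransferases, 8 acyl-CoA dehydrogenases, 5 enoyl-CoA hydratases and isomerases, 3 hydroxyacyl-CoA dehydrogenase genes, 2 thiolases, 3 genes of the electron transfer flavoprotein system, 3 peroxisomal acyl-CoA oxidases and 4 acyl-CoA thioesterases. Some genes of these roles had no ID under their symbol. Of 7 hydratases and isomerases listed 5 had one, of 10 thioesterases 4, and of 7 medium-chain synthetases 3. ECHS1, an enoyl-CoA hydratase, and ECI1 were among those missing, so neither was measured here.

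RNA was sequenced from fat, liver and muscle of Berkshire pigs, a commercial breed, and of Korean native pigs, with 1 library for each of the 6 combinations of breed and tissue. The labels give breed and tissue and nothing on treatment, age, sex, fat depot or which muscle was taken. Whether 1 animal or several gave the tissues of a breed is not labelled either, so breed, animal and dissection cannot be told apart.

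Before a fatty acid is burned it is joined to coenzyme A by a synthetase matched to its chain length. Long chains then cross into the mitochondrion as carnitine esters, made by CPT1 at the outer membrane and undone by CPT2 inside. There each round of beta-oxidation runs through an acyl-CoA dehydrogenase, an enoyl-CoA hydratase, a hydroxyacyl-CoA dehydrogenase and a thiolase, and the dehydrogenases pass their electrons to the electron transfer flavoprotein. Peroxisomes shorten very long and branched chains by a parallel route that starts with acyl-CoA oxidases. Liver oxidizes fatty acids and exports ketone bodies, skeletal muscle burns both, and white fat mainly stores and releases fatty acids.

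The libraries held between 5897407 and 7912093 counts on genes. Levels are given as TMM-scaled CPM, the usual per-library scaling of read counts with the library size corrected for genes that take up much of it, and are called CPM below. A count of 0 allows a level of up to 0.294 to 0.692 CPM, depending on the library. Defining markers followed the tissue labels: 8 hepatocyte markers summed to 203100 and 240200 CPM in liver and to at most 64.4 CPM elsewhere, and 4 skeletal muscle markers summed to 73260 and 116900 CPM in muscle and to at most 58.2 CPM elsewhere. The 6 adipocyte markers summed to 5062 and 4056 CPM in fat, and to 253 to 625 CPM in the other libraries. In every pair of values below, the Berkshire library comes first and the Korean native library second.

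The 44 genes together held 0.652% and 0.637% of the gene counts in fat. Their share was 1.05% and 1.20% in liver and 0.286% and 0.247% in muscle. Liver therefore stood above both other tissues in both breeds. The number of genes at 10 CPM or more was similar in all libraries, between 31 and 35, and 27 genes reached that level in all 6. Under 10 CPM in every library were 5 genes: ACAD10, ACOT7, CPT1C, ACADVL and ACSL6. ACADVL, the very long-chain acyl-CoA dehydrogenase, was counted at 0 to 3 reads in each library, and so was ACSL6; these 2 genes did not pass the filter on low counts, which left 42 for the tests. Since 46.6% of the IDs carried a symbol, a further gene model of ACADVL or of any other gene here may lie among the IDs without one and was not looked for. A gene present in 1 tissue can pass that filter through that tissue. Levels are compared between libraries and not between genes, because transcript lengths were not used here.

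**Figure D1:**
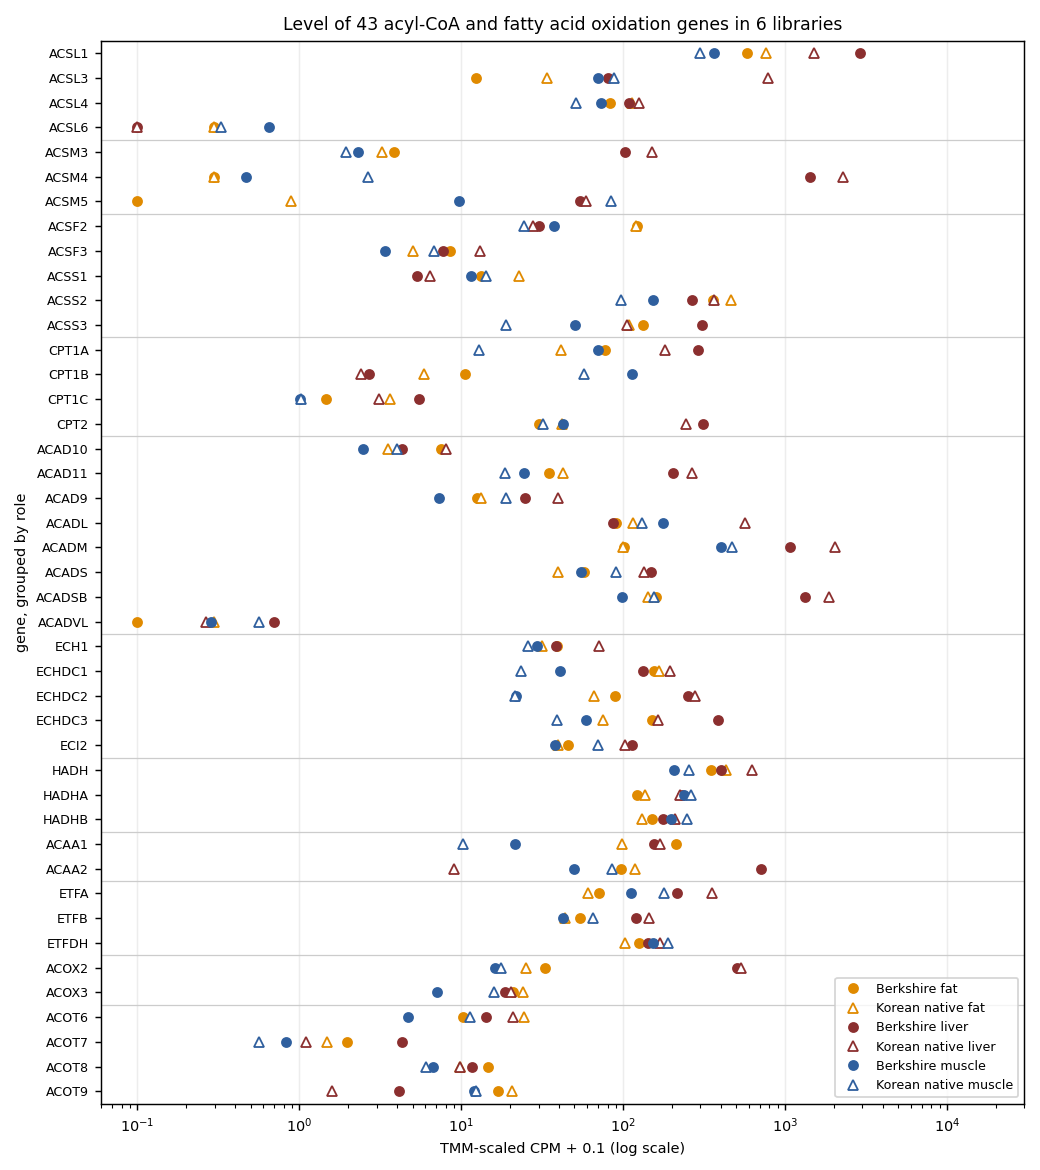
Each row is 1 of 43 genes, grouped by role, and the horizontal axis gives its TMM-scaled CPM plus 0.1 on a log scale in each of the 6 libraries (filled circles Berkshire, open triangles Korean native; orange fat, red liver, blue muscle). The liver symbols lie to the right for ACSM3, ACSM4 and most acyl-CoA dehydrogenases, while for ACSM5 the Korean native muscle symbol lies furthest right. CPT1B lies to the right in muscle, and the Korean native liver symbol of ACAA2 stands at 8.95 CPM, with its Berkshire counterpart at 711 CPM.

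Tissues were compared by edgeR's quasi-likelihood test in an additive model of tissue and breed, two-sided, with p-values adjusted by Benjamini-Hochberg over 13810 genes and a threshold of 0.05. The 2 libraries of a tissue come from the 2 breeds, so the spread in this test is the departure of the breed difference from 1 tissue to another. Against fat, 19 of the 42 tested genes rose in liver (45.2%) and 4 fell (9.52%), where 15.2% of all genes tested were higher and 13.5% lower. Against muscle, 20 rose in liver (47.6%) and 3 fell (7.14%), beside 18.6% and 17.4% of all genes. Muscle against fat gave 3 higher (7.14%) and 7 lower (16.7%), beside 9.95% and 6.43% of all genes. The median log2 difference of the 42 genes was 0.98 for liver against fat, 1.32 for liver against muscle and -0.64 for muscle against fat, while that of all genes lay at 0.06, -0.01 and -0.05. In whole tissue, fewer cells of a type and less RNA per cell cannot be told apart.

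The TMM scaling bears on these counts, since fat libraries had scaling factors of 1.62 and 1.52 and the others 0.736 to 0.914. With plain total counts the median of all genes moved to -0.94 for liver against fat and to -0.98 for muscle against fat, and the calls became 10 higher and 7 lower for liver against fat and 2 higher and 24 lower for muscle against fat. No gene that had passed changed direction under that scaling. Without Korean native fat, 9 genes were higher and 2 lower in liver against fat, and 2 were lower in muscle against fat.

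**Figure D2:**
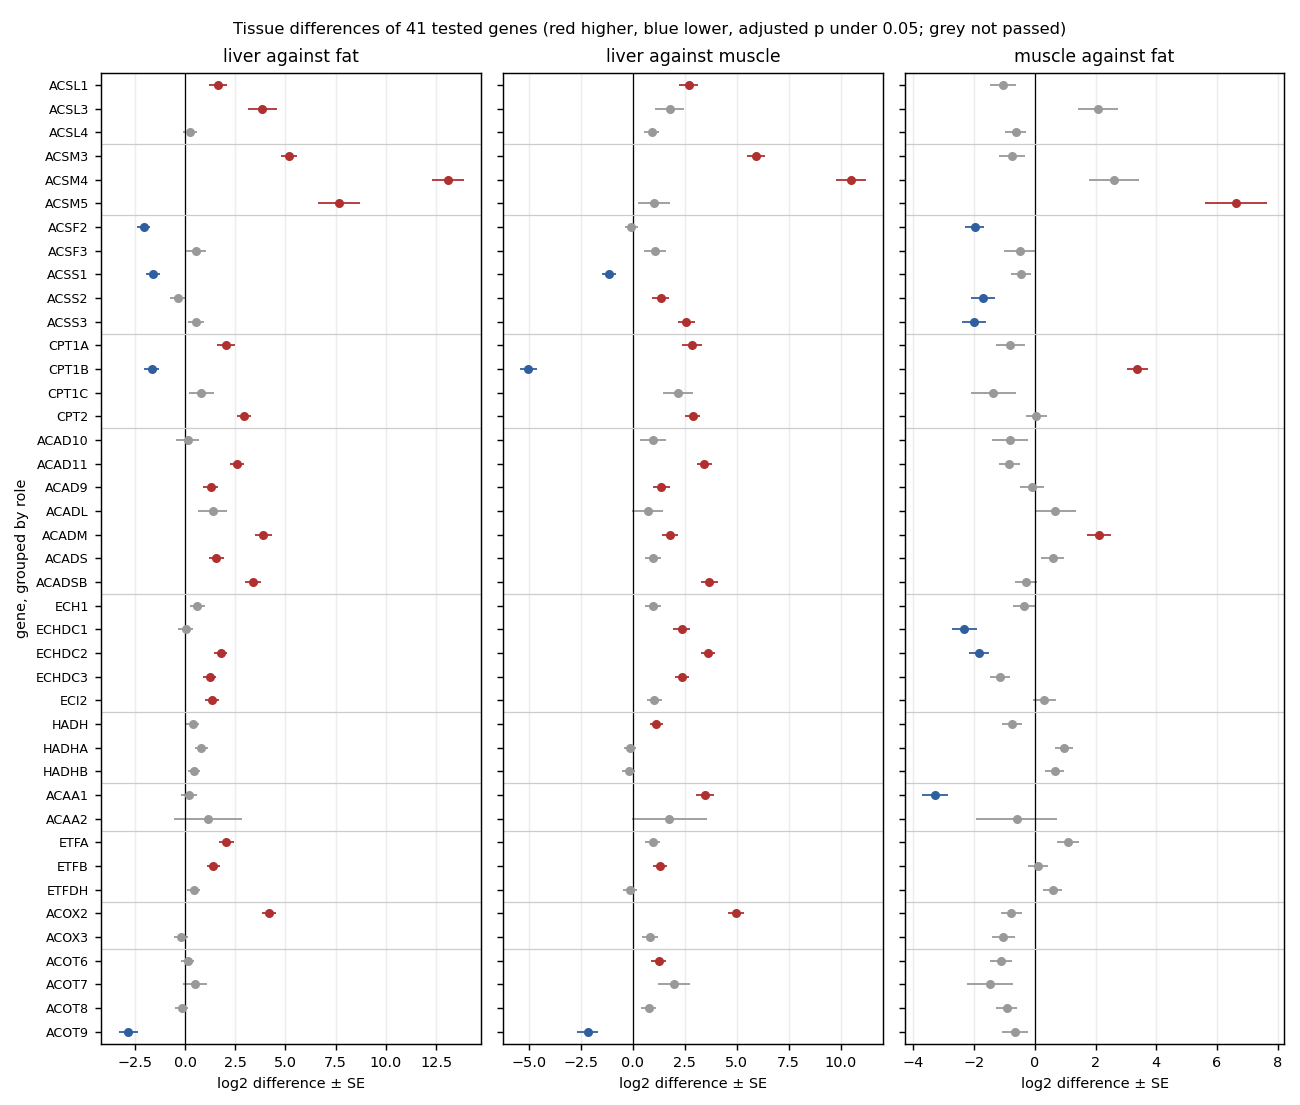
Log2 difference between tissues for 41 tested genes, grouped by role, with bars of 1 SE (the log2 value divided by the square root of the F statistic), for liver against fat, liver against muscle and muscle against fat; each panel has its own axis. Red points passed as higher and blue points as lower at an adjusted p under 0.05: 18 and 4, 19 and 3, and 3 and 6 of the genes drawn.

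The medium-chain acyl-CoA synthetases, mitochondrial enzymes that activate medium-chain fatty acids and some aromatic acids, gave the 3 largest differences of the set in liver against fat. ACSM4 (ENSSSCG00000030033) was at 1419 and 2283 CPM in liver, against 0.196 and 0.197 CPM in fat, 2 reads in each fat library, and 0.366 and 2.54 CPM in muscle. With the libraries of a tissue pooled, the liver level was 9625 times that of fat, with a 95% exact binomial counting interval of 3759 to 35330. That interval covers counting error only and not the spread between libraries. ACSM4 passed the filter on low counts through its liver libraries. ACSM3 (ENSSSCG00000007857) stood at 103 and 150 CPM in liver, at 3.72 and 3.16 CPM in fat and at 2.20 and 1.85 CPM in muscle. Both genes separated liver from the other tissues with no overlap, with a log2 difference for ACSM3 of 5.18 ± 0.39 (SE) from fat and 5.93 ± 0.42 from muscle (edgeR adjusted p = 1.79e-04 and 1.13e-04).

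ACSM5 (ENSSSCG00000026453) had another pattern. Its level was 53.8 and 59.0 CPM in liver, 9.52 and 84.4 CPM in muscle, and 0 and 0.789 CPM in fat, where the counts were 0 and 8 reads. Liver and muscle both lay above fat without overlap, by 7.64 ± 1.04 and 6.63 ± 1.02 on the fitted log2 scale (adjusted p = 0.00214 and 0.00728). ACSM5 passed the filter on low counts through its liver and muscle libraries, the tissues where it was high, and not through fat. Muscle spanned a wider range than the liver pair, and liver against muscle was 1.01 ± 0.76 (adjusted p = 0.342), which became 2.57 (adjusted p = 0.0046) without Korean native liver. In the RefSeq gene order of Sscrofa11.1, ACSM3, ACSM4 and ACSM5 lie within a few genes of each other, with ACSM4 2 steps from each of the other 2. Related genes in 1 cluster can share sequence, and reads without a unique alignment were not counted on genes, so a split between these 3 genes is uncertain.

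Among the long-chain synthetases, ACSL1 (ENSSSCG00000015784), the main form in liver and fat in mammals, was at 2902 and 1496 CPM in liver, 579 and 760 CPM in fat and 366 and 299 CPM in muscle. It rose in liver by 1.65 ± 0.45 against fat and by 2.69 ± 0.46 against muscle (adjusted p = 0.0312 and 0.00421), and the first of these did not pass with total counts (0.62, adjusted p = 0.271). ACSL3 (ENSSSCG00000016223), a form tied to lipid droplets and the endoplasmic reticulum, was at 80.4 and 788 CPM in liver, 69.4 and 87.4 CPM in muscle and 12.2 and 33.6 CPM in fat. Its 3.85 ± 0.72 rise in liver against fat passed (adjusted p = 0.00768), while liver overlapped the muscle range (1.77 ± 0.69, edgeR adjusted p = 0.0871; 0.0331 with DESeq2). Muscle against fat was 2.08 ± 0.66 (edgeR adjusted p = 0.0752; 0.0182 with DESeq2). ACSL4, which prefers arachidonic acid, stayed between 51.2 and 124 CPM in all libraries and passed in no tissue comparison.

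Of the 5 short-chain and other synthetases, 0 rose in liver against fat and 2 fell, beside 15.2% and 13.5% of all genes. Against muscle, 2 rose in liver and 1 fell, beside 18.6% and 17.4% of all genes. ACSF2 (ENSSSCG00000017566), a mitochondrial acyl-CoA synthetase, was at 122 and 120 CPM in fat, 30.2 and 27.7 CPM in liver and 37.3 and 24.5 CPM in muscle. It fell by 2.06 ± 0.31 in liver and by 1.99 ± 0.31 in muscle against fat (adjusted p = 0.00334 and 0.00814), although the muscle call was lost without Korean native fat (adjusted p = 0.0612). ACSS1, the mitochondrial acetyl-CoA synthetase, was at 13.1 and 22.6 CPM in fat, 11.4 and 14.1 CPM in muscle and 5.20 and 6.30 CPM in liver, which lay lowest in both breeds (-1.60 ± 0.34 against fat, adjusted p = 0.0133; not past the threshold without Korean native fat or Korean native liver). Its fall against muscle (-1.15 ± 0.35, adjusted p = 0.04) did not pass when the breed term was dropped or when any liver or muscle library was left out. ACSS2, the cytosolic form that feeds fatty acid synthesis, was at 358 and 460 CPM in fat, 267 and 366 CPM in liver and 152 and 97.3 CPM in muscle, with a fall in muscle of 1.70 ± 0.40 against fat (adjusted p = 0.0316). ACSS3, which activates propionate, fell in muscle against fat by 2.00 ± 0.41 (adjusted p = 0.0198), from 133 and 108 CPM to 50.0 and 18.7 CPM. In liver it was at 306 and 106 CPM. The muscle against fat calls of ACSS2 and ACSS3 were lost without Korean native fat or Korean native muscle. Liver exceeded muscle by 1.33 ± 0.40 for ACSS2 and by 2.56 ± 0.41 for ACSS3 (edgeR adjusted p = 0.0373 and 0.00332). The ACSS2 call was lost with total counts, while the ACSS3 call passed under every alternative fit.

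The carnitine palmitoyltransferases divided by isoform. CPT1A (ENSSSCG00000012880), the liver form of the enzyme that commits long chains to oxidation, was at 289 and 182 CPM in liver, 77.6 and 41.4 CPM in fat and 69.4 and 12.7 CPM in muscle. It rose in liver by 2.85 ± 0.50 against muscle (adjusted p = 0.0047) and by 2.04 ± 0.47 against fat (adjusted p = 0.0175), the latter not past the threshold with total counts (1.03, adjusted p = 0.12). CPT1B (ENSSSCG00000022364), the muscle form, was at 114 and 57.0 CPM in muscle, 10.5 and 5.82 CPM in fat and 2.60 and 2.32 CPM in liver. The 3 tissues did not overlap, and muscle exceeded fat by 3.37 ± 0.34 and lay above liver, where the log2 difference from muscle was -5.02 ± 0.39 (adjusted p = 0.00123 and 1.62e-04). Its fall in liver against fat (-1.66 ± 0.38, adjusted p = 0.0168) was lost without either fat library or without Berkshire liver.

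Of the reads on CPT1A and CPT1B together, CPT1B took 62.1% in Berkshire muscle and 81.8% in Korean native muscle (95% exact binomial intervals 59.0 to 65.1% and 77.0 to 86.0%). The share was 11.9% and 12.3% in fat and 0.891% and 1.26% in liver. These are shares of reads, not corrected for transcript length, so they are set against each other across libraries only. CPT2, the inner-membrane partner, was at 310 and 243 CPM in liver, 30.2 and 41.6 CPM in fat and 42.7 and 32.1 CPM in muscle, and rose in liver by 2.93 ± 0.37 against fat and 2.89 ± 0.37 against muscle (adjusted p = 0.00149 and 0.00119). CPT1C, a mainly neuronal form, stayed at or under 5.40 CPM.

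**Figure D3:**
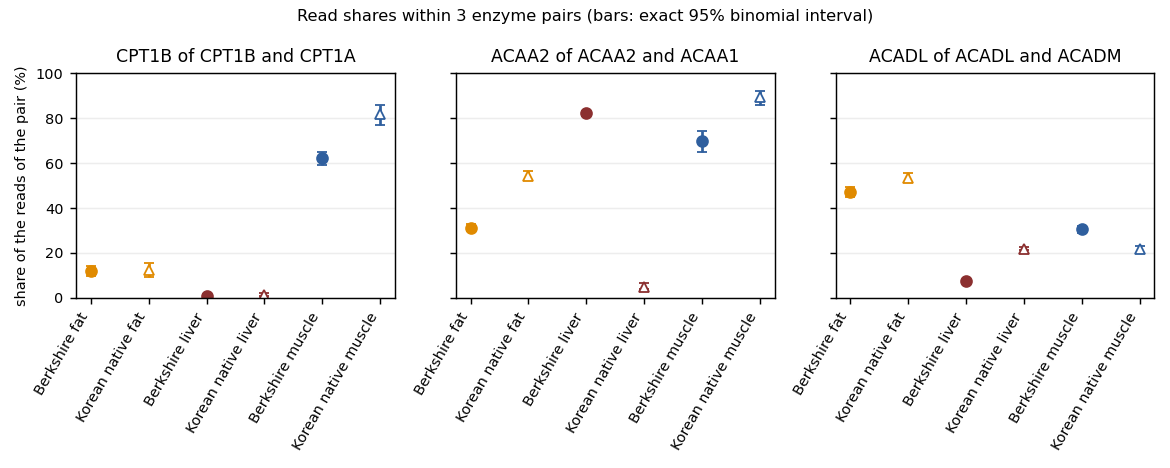
Share of the reads of an enzyme pair that fell on the first gene, in percent, for CPT1B with CPT1A, ACAA2 with ACAA1 and ACADL with ACADM in each library (filled circles Berkshire, open triangles Korean native), with exact 95% binomial intervals. The CPT1B share is 62.1% and 81.8% in muscle and at most 12.3% in the other libraries, and the ACAA2 share is 82.2% in Berkshire liver and 5.06% in Korean native liver.

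Of 7 tested acyl-CoA dehydrogenases, which open each round of oxidation, 5 rose in liver against fat and 4 against muscle, where the shares of all genes were 15.2% and 18.6%. ACADM (ENSSSCG00000003776), the medium-chain enzyme, was at 1076 and 2027 CPM in liver, 400 and 471 CPM in muscle and 101 and 99.9 CPM in fat. The order liver, muscle, fat held in both breeds, with steps of 1.79 ± 0.39 and 2.10 ± 0.40 (adjusted p = 0.012 and 0.0157); the first was lost without Korean native liver (1.36, adjusted p = 0.103) or Korean native muscle, the second without either fat library or with total counts (1.17, adjusted p = 0.0525). ACADSB, the short/branched-chain enzyme that also serves isoleucine breakdown, was at 1334 and 1870 CPM in liver against 159 and 142 CPM in fat and 97.9 and 155 CPM in muscle. It rose by 3.38 ± 0.41 against fat and 3.67 ± 0.41 against muscle (adjusted p = 0.00128 and 6.92e-04). ACAD11 was at 204 and 266 CPM in liver and at 18.5 to 42.6 CPM in the other 4 libraries, a rise of 2.60 ± 0.34 against fat and 3.44 ± 0.36 against muscle (adjusted p = 0.00188 and 5.11e-04).

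ACADS, the short-chain enzyme, was higher in liver than in fat (149 and 135 CPM against 56.9 and 39.4 CPM, log2 1.56 ± 0.38, adjusted p = 0.021), and ACAD9, an assembly factor of respiratory complex I, by a smaller step (24.8 and 39.3 CPM against 12.3 and 13.1 CPM, log2 1.27 ± 0.38, adjusted p = 0.0454). Both calls were lost with total counts, without Korean native fat and without Berkshire liver. The ACAD9 call was also lost with RLE factors in place of TMM factors, without the breed term and without Korean native liver. ACADL, the long-chain enzyme, was at 85.8 and 568 CPM in liver, 175 and 130 CPM in muscle and 90.5 and 115 CPM in fat. Its liver pair enclosed all other libraries, and no tissue comparison passed, although liver exceeded fat by 2.48 (adjusted p = 0.00428) and muscle by 1.91 (adjusted p = 0.0221) without Berkshire liver.

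HADHA and HADHB, the subunits of the trifunctional protein for long chains, lie next to each other in the RefSeq order. HADHA was at 231 and 224 CPM in liver, 238 and 263 CPM in muscle and 122 and 136 CPM in fat, and HADHB at 176 and 210, 198 and 248, and 151 and 131 CPM. Fat was lowest for both subunits in both breeds, yet neither passed a tissue comparison by edgeR. For HADHA, muscle against fat was 0.96 ± 0.31 (edgeR adjusted p = 0.0765), which passed with DESeq2 (adjusted p = 0.0229) and limma-voom (0.0469), and liver against fat 0.82 ± 0.31 (edgeR adjusted p = 0.0898). HADHA took between 44.7% and 56.7% of the reads of the pair in every library. HADH, the enzyme for shorter chains, was at 400 and 625 CPM in liver, 351 and 428 CPM in fat and 206 and 253 CPM in muscle, where liver exceeded muscle by 1.14 ± 0.33 (adjusted p = 0.0348), a call lost when any 1 library was left out.

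The hydratases and isomerases described here do not include ECHS1 or ECI1. Among them, ECHDC2 was at 252 and 277 CPM in liver, 88.8 and 65.8 CPM in fat and 21.8 and 21.2 CPM in muscle, so that the 3 tissues did not overlap. Liver exceeded fat by 1.78 ± 0.32 and muscle by 3.62 ± 0.35, and muscle was below fat by 1.84 on the same scale (adjusted p = 0.0065, 3.44e-04 and 0.0123). With total counts the liver against fat value was 0.78 (adjusted p = 0.0784). ECHDC1, the ethylmalonyl-CoA decarboxylase, was at 155 and 166 CPM in fat, 132 and 194 CPM in liver and 40.6 and 23.3 CPM in muscle, lowest in muscle in both breeds (-2.33 ± 0.41 against fat, adjusted p = 0.0119; the call was lost without Korean native fat, adjusted p = 0.053). ECHDC3 rose in liver against muscle by 2.38 ± 0.34 (adjusted p = 0.00188), with 382 and 163 CPM in liver and 58.6 and 39.0 CPM in muscle. The ECHDC3 rise in liver against fat was 1.23 ± 0.32 (edgeR adjusted p = 0.0276). That call was lost with total counts, without the breed term and without any 1 fat or liver library. ECI2, an isomerase for unsaturated chains, was at 113 and 103 CPM in liver against 45.3 and 39.4 CPM in fat (1.34 ± 0.37, adjusted p = 0.0319). The ECI2 call was lost with total counts (0.33, adjusted p = 0.423) and without Berkshire liver or either fat library. ECH1 lay between 25.6 and 70.6 CPM and passed in no tissue comparison.

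The thiolases close each round. ACAA1 (ENSSSCG00000011250), the peroxisomal enzyme, was at 213 and 98.5 CPM in fat, 154 and 168 CPM in liver and 21.4 and 10.15 CPM in muscle. Muscle lay far below both other tissues, by 3.29 on the log2 scale from fat (SE 0.43) and by 3.47 from liver (SE 0.44; adjusted p = 0.00368 and 0.00115), while liver and fat overlapped. ACAA2 (ENSSSCG00000004510), the mitochondrial enzyme, was at 711 and 8.95 CPM in liver, 96.9 and 118 CPM in fat and 49.4 and 85.6 CPM in muscle. The liver pair held both the highest and the lowest of the 6 values, so the fitted liver against fat difference of 1.15 ± 1.70 did not pass (adjusted p = 0.661). It was 3.00 (adjusted p = 0.00102) without Korean native liver and -3.85 (adjusted p = 4.35e-04) without Berkshire liver, so that 1 library set its direction.

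The electron transfer flavoprotein collects electrons from the acyl-CoA dehydrogenases. ETFA, its alpha subunit, was at 214 and 352 CPM in liver, 111 and 178 CPM in muscle and 70.9 and 60.3 CPM in fat, and ETFB, its beta subunit, at 119 and 145, 42.5 and 64.8, and 54.3 and 43.7 CPM. Both rose in liver against fat (2.05 ± 0.38 and 1.41 ± 0.34, adjusted p = 0.00732 and 0.0201), and neither call held without Korean native fat. ETFDH, the membrane enzyme that hands the electrons to ubiquinone, moved between 103 and 189 CPM and passed in no tissue comparison.

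In peroxisomes, ACOX2 (ENSSSCG00000011477), the oxidase for branched chains and bile acid precursors, was at 507 and 536 CPM in liver and at 16.1 to 32.8 CPM in the other 4 libraries. It rose in liver by 4.18 ± 0.36 against fat and 4.95 ± 0.38 against muscle (adjusted p = 3.27e-04 and 1.5e-04). Among the thioesterases, which split acyl-CoA back to the free acid, ACOT9 was lowest in liver, at 4.00 and 1.49 CPM against 16.8 and 20.6 CPM in fat and 11.9 and 12.2 CPM in muscle (-2.82 ± 0.49 and -2.18 ± 0.49, adjusted p = 0.00561 and 0.0134); the second call was lost without Korean native liver (adjusted p = 0.09). ACOT8, a peroxisomal form, stayed between 6.00 and 14.6 CPM.

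Left-out libraries bore unevenly on these calls. Of the 19 genes higher in liver than in fat, 9 passed under every alternative fit, namely ACSM3, ACSM4, ACSM5, ACSL3, CPT2, ACADM, ACADSB, ACAD11 and ACOX2, and of the 20 higher in liver than in muscle 14 did. The other 10 liver against fat calls were all lost without Korean native fat (adjusted p of 0.0526 to 0.301), 6 of them without Berkshire liver, 5 without Berkshire fat and 5 without Korean native liver, with the direction kept each time. The other 6 liver against muscle calls, ACADM, ACAD9, ACSS2, ACOT6, ETFB and HADH, were each lost without at least 1 liver library. For muscle against fat, ACSM5 and CPT1B of the 3 higher genes and ACAA1 of the 7 lower genes passed under every alternative fit. Where low counts were filtered, ACSM5 entered the fit through liver and muscle and not through fat. The other lower genes were each lost without at least 1 fat library (ECHDC2 without Berkshire fat, the rest without Korean native fat).

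The breeds were compared over the 3 tissues with the breed term of the same model. By edgeR's adjusted p, 0 of the 42 genes were higher and 0 lower in Korean native libraries, as were 0 with DESeq2 and 0 with limma-voom; of all genes, 0.029% were higher and 0.0797% lower. At an unadjusted edgeR p under 0.05 there were 7 of the 42, beside 1103 of 13810 genes tested (7.99%). They were ACOT6, ACSL3 and ACSM5, higher, and ECHDC3, CPT1A, ACSS3 and CPT1B, lower, with adjusted p between 0.439 and 0.607. ACSM5 was the 1 gene that passed when a library was left out, with a log2 difference of 3.30 without either liver library (adjusted p = 0.0201 without Berkshire liver and 0.0148 without Korean native liver) against 1.79 ± 0.73 with all 6.

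A single tissue offers 1 library of each breed, which leaves no test, and only the size of a difference is given. A ratio was counted where 1 of the 2 libraries reached 10 CPM and the levels differed at least 2-fold on a log2 scale with a prior count of 2. Korean native fat had 2 of 35 genes higher (5.71%) and 1 lower (2.86%), liver 2 of 36 higher (5.56%) and 3 lower (8.33%), and muscle 4 of 35 higher (11.4%) and 3 lower (8.57%). Over all genes 4.17% were higher and 3.47% lower in fat. The liver shares were 5.73% and 5.44% and the muscle shares 10.9% and 9.22%, so the genes as a set lay near the background. Intervals below are 95% exact binomial counting intervals of the CPM ratio and cover counting error only.

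**Figure D4:**
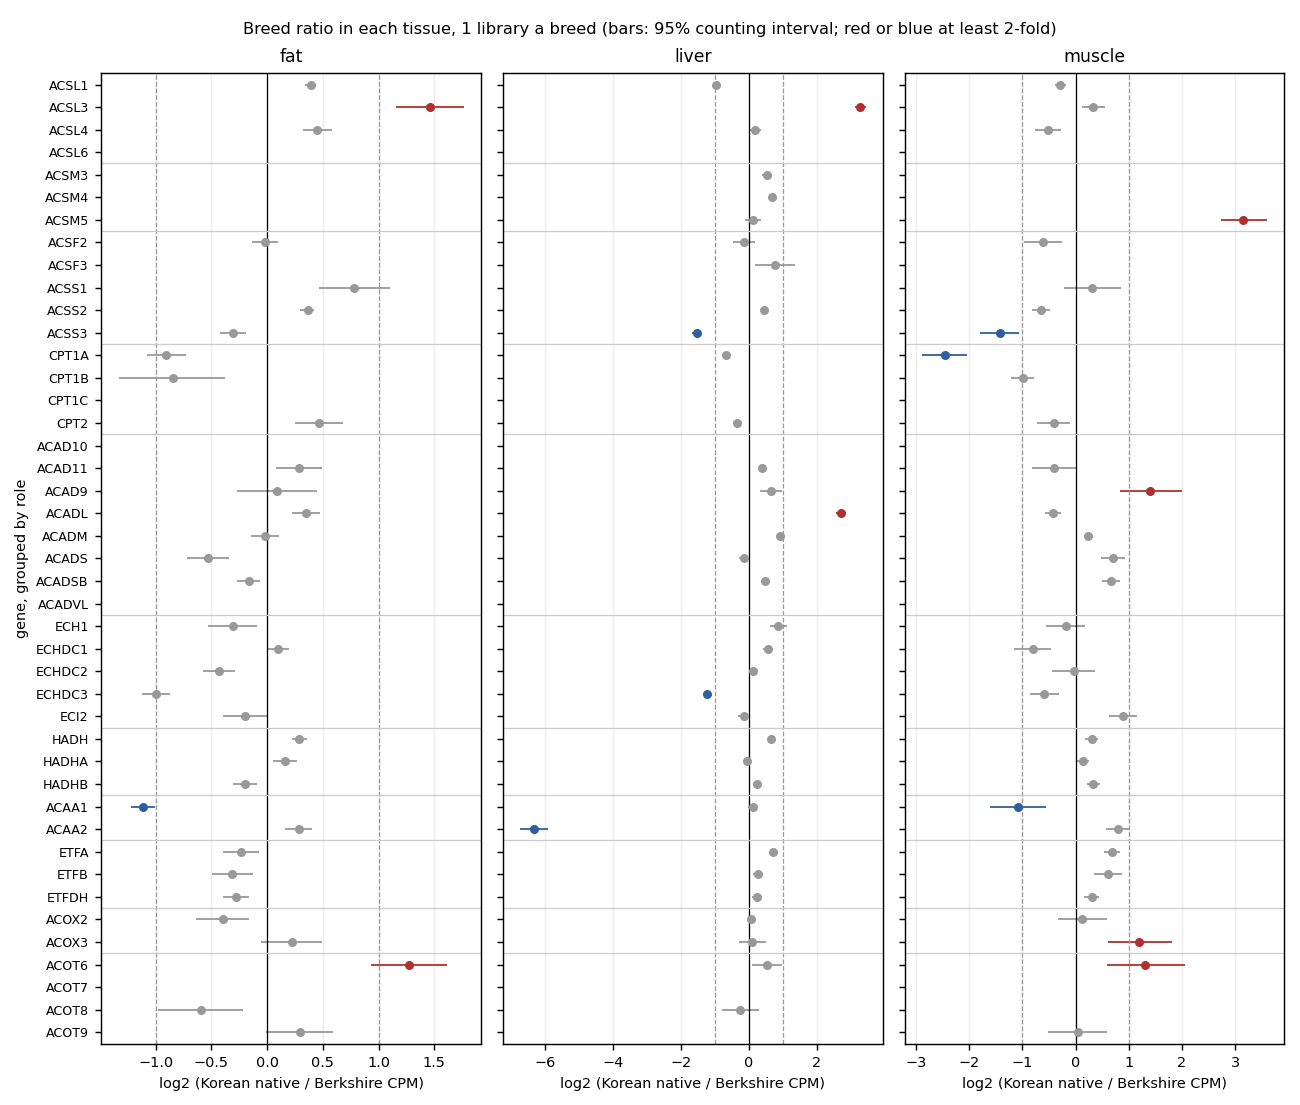
Log2 ratio of CPM in the Korean native library to the Berkshire library for genes with at least 10 CPM in 1 of them, grouped by role, in fat, liver and muscle, with 95% counting intervals; each panel has its own axis and dashed lines mark 2-fold. Coloured points are at least 2-fold apart, and the ACAA2 point in liver lies at 79.4-fold lower.

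In liver, ACAA2 gave the widest gap of any gene in the set. There were 3552 reads of it in the Berkshire library and 54 in the Korean native library, a level 79.4-fold lower (60.7 to 106). The same gene ID collected 1194 reads in Korean native fat and 371 in Korean native muscle, where its level was 1.22-fold and 1.73-fold that of Berkshire. Of the reads on both thiolases, ACAA2 held 82.2% in Berkshire liver (81.0 to 83.3%) and 5.06% in Korean native liver (3.82 to 6.55%). ACAA1, the peroxisomal thiolase, was at 154 and 168 CPM in the same livers. Of the nearest named neighbours of ACAA2 in the RefSeq order, LIPG was at 219 and 132 CPM in liver and MYO5B at 46.8 and 39.9 CPM. LIPG was at 1.08 and 22.1 CPM in fat and 5.31 and 17.5 CPM in muscle. MYO5B was at 2.74 and 3.65 CPM in fat and 2.75 and 2.08 CPM in muscle. Whether liver reads of ACAA2 fell on a gene ID without a symbol was not looked at, and the cause of the gap was not tested.

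Also in liver, ACSL3 was 9.80-fold higher in the Korean native library (8.85 to 10.9) and ACADL 6.62-fold higher (5.99 to 7.34), from the levels given above. The share of ACADL in the reads of ACADL and ACADM was 7.39% in Berkshire liver and 21.9% in Korean native liver, while ACADM itself was 1.88-fold higher (1.83 to 1.95). ACSS3, the propionate enzyme, was at 306 and 106 CPM, 2.90-fold lower (2.64 to 3.18), and ECHDC3 was 2.35-fold lower (2.17 to 2.54). Just inside 2-fold lay ACSL1, 1.94-fold lower, and ECH1, 1.84-fold higher. CPT1A and CPT2 were 1.59-fold and 1.28-fold lower. Among 36 liver genes 25 were higher in the Korean native library, beside 50.2% of all genes, and the median log2 ratio was 0.25, against 0.002 for all genes.

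Other liver genes differed between these libraries. The 7 pericentral liver genes, which mark hepatocytes around the central vein, summed to 6050 and 346 CPM. CYP2E1 (5397 and 7.12 CPM) and CYP1A2 (415 and 17.6 CPM) carried that gap, while OAT and SLC1A2 were higher in the Korean native library (147 and 246 CPM, and 13.6 and 24.2 CPM), and of 5 pericentral genes that reached 10 CPM 2 were higher and 3 lower. The 7 periportal genes summed to 10320 and 5674 CPM. The 3 red blood cell genes summed to 249 and 2134 CPM, and 6 macrophage markers to 374 and 307 CPM. Their part in the liver ratios was not tested.

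In muscle, ACSM5 was 8.87-fold higher in the Korean native library (6.62 to 12.1), at 52 reads in Berkshire and 366 in Korean native muscle. It was at 53.8 and 59.0 CPM in liver, where the ratio was near 1. The fatty acid entry step lay the other way: CPT1A was 5.47-fold lower (4.11 to 7.39) and CPT1B 1.99-fold lower (1.72 to 2.32) in Korean native muscle. ACSS3 was 2.67-fold lower (2.08 to 3.47) and ACAA1 2.11-fold lower (1.48 to 3.06). ACAD9, ACOT6 and ACOX3 were 2.65-fold, 2.47-fold and 2.29-fold higher, each at under 10 CPM in Berkshire muscle. Had both libraries been required to reach 10 CPM, 0 genes would have counted as higher, ACSM5 included, since Berkshire muscle had 9.52 CPM of it.

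The muscle libraries also differed in RNA of cell type markers. The 6 adipocyte markers were all lower in Korean native muscle (sums of 625 and 381 CPM, median log2 ratio -1.73), as were the 5 fibroblast markers (21160 and 4739 CPM, median -1.24) and the 3 macrophage markers that reached 10 CPM, each at least 2-fold (median -1.35, with sums of 80.2 and 29.3 CPM over 6 markers). All 4 skeletal muscle markers were higher (73260 and 116900 CPM, median 0.80; 3 of 4 with total counts, median 0.48), with slow fibre markers at 5689 and 9357 CPM and fast fibre markers at 18460 and 32520 CPM. Fat itself had 77.6 and 41.4 CPM of CPT1A and 213 and 98.5 CPM of ACAA1, and 0 and 0.789 CPM of ACSM5. Their part in the muscle ratios was not tested. With total counts the median of all genes in muscle moved from 0.08 to -0.23, and CPT1B and ECHDC1 joined the lower genes while ACOT6 and ACOX3 left the higher ones.

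In fat the gaps were smaller. ACSL3 was 2.75-fold higher in the Korean native library (2.23 to 3.40) and ACOT6, a thioesterase, 2.41-fold higher (1.91 to 3.07), at 10.1 and 24.4 CPM. ACAA1 was 2.16-fold lower (2.01 to 2.33), and ECHDC3, at 151 and 75.4 CPM, fell just short of the limit (log2 ratio -0.99). CPT1A was 1.87-fold lower (1.66 to 2.11). The fibroblast markers summed to 13200 and 18840 CPM and the macrophage markers to 109 and 224 CPM in these fat libraries. Of the 6 adipocyte markers 4 were lower and 2 higher in Korean native fat (median log2 ratio -0.53, sums of 5062 and 4056 CPM). At least 2-fold lower were LIPE and CIDEC (1035 and 501.5 CPM, and 858 and 409.5 CPM), and 0 were at least 2-fold higher. The part of these markers was not tested.

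Across tissues, 31 genes had at least 10 CPM in 1 library of every tissue. In each tissue 6 were higher in the Korean native library, among them ACSL3, ACOT6, ACOX3, ACAD9 and HADH, and 4 were lower in each: CPT1A, ACSS3, ECHDC3 and ACSF2. HADH was no longer higher in muscle with total counts (log2 -0.01). The counting interval took in equal levels for ACAD9 in fat, for ACOX3 in fat and liver, and for ACSF2 in fat (122 and 120 CPM) and liver. Of all such genes 16.0% were higher and 15.4% lower in each tissue. CPT1A was thus lower by 1.87-fold in fat, 1.59-fold in liver and 5.47-fold in muscle, and ACSL3 higher by 2.75-fold, 9.80-fold and 1.26-fold. ETFA, ETFB and ETFDH were all lower in Korean native fat (median log2 -0.28) and all higher in Korean native liver and muscle (medians 0.28 and 0.61), with none reaching 2-fold. In muscle the ETFDH difference was -0.01 with total counts.

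Other genes that serve the pathway, 46 with an ID in 6 lists, were described in the same way. Of 45 tested, liver was above fat for 23 and below it for 6, beside 15.2% and 13.5% of all genes. Liver against muscle gave 27 higher and 7 lower, beside 18.6% and 17.4%. Muscle against fat gave 3 higher and 6 lower, beside 9.95% and 6.43%. In the carnitine list CROT, the peroxisomal carnitine octanoyltransferase, was at 251.5 and 2000 CPM in liver and at 32.1 to 42.4 CPM elsewhere, while CRAT, the carnitine acetyltransferase, was at 515 and 1146 CPM in muscle and at 135 to 167 CPM elsewhere. Of 5 ketone body genes 4 rose in liver against fat, and OXCT1, which tissues need to burn ketone bodies, fell, with 12.0 and 11.6 CPM in liver against 547 and 530 CPM in fat (-5.51 ± 0.39, adjusted p = 1.43e-04). Of 13 auxiliary and branched-chain genes 8 rose in liver against fat and 11 against muscle, among them DECR1, which handles unsaturated chains, at 671 and 1015 CPM in liver against 90.9 and 96.4 CPM in fat. Of 7 further peroxisomal genes 5 rose in liver against fat, 1 fell, and 3 fell in muscle against fat, CAT (catalase) being at 10680 and 7869 CPM in liver, 1459 and 1226 CPM in fat and 593 and 379 CPM in muscle. Fatty acid uptake genes were mixed, with 1 of 6 higher and 2 lower in liver against fat.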

How the data were processed

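Whole-tissue RNA of 6 pig tissue samples was sequenced from Illumina TruSeq libraries, per the labels' protocols. The deposited files hold raw counts of reads per Ensembl gene, which the authors made, per the submitters' processing notes, with TopHat on Sscrofa10.2 and HTSeq 0.5.3p3. The sources used here do not state the strand setting or the annotation release, and reads of genes that overlap, antisense ones included, may be mixed. The 5 closing entries that name no gene were left out. The no-feature entry held 45.9% to 52.5% of a library's total and reads without a unique alignment 14.1% to 20.8%. With the strand setting not stated, whether the no-feature reads lay outside genes is not known.

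Symbols came from the supplied name table (46.6% of IDs). edgeR 4.0.16 in R 4.3.3 was run on all 6 libraries with terms for tissue and breed, TMM factors and filterByExpr, which left 13810 genes, 2 residual degrees of freedom and a biological coefficient of variation of 29.5%. DESeq2 1.42.0 and limma 3.58.1 (voom) were alternatives, as were other scalings, filters and leaving out each library. The p-values measure the spread between these libraries, which may be technical.

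The genes and lists were chosen with earlier results of these data known. Genes were named when called in a tissue comparison, among the 4 of highest mean level in a role, or among the 6 widest breed ratios in each direction of a tissue; ACAA2 and ACSM5 were always named. Genes of the other pathway lists are up to 3 of highest mean level. The pericentral marker genes named singly go past that limit. No coordinates are given, since the supplied annotation is of another build (Sscrofa11.1). The values of 1 gene enter the counts and medians and are not reported here singly.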

Additional observations from a re-analysis of the deposited data

How the results depend on the processing

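Depth limited the genes near the floor, where a few reads in fat carry the ACSM4 and ACSM5 differences, and each breed has 1 library a tissue, so breed ratios have no replicate check. With total counts, 10 genes were higher and 7 lower in liver against fat (19 and 4 with TMM), and 24 were lower in muscle against fat (7 with TMM). DESeq2 gave 6 genes higher in muscle against fat (3 with edgeR). Leaving out 1 library gave 9 to 19 higher and 2 to 4 lower for liver against fat, 2 to 5 higher and 2 to 7 lower for muscle against fat, 18 to 20 higher and 1 to 3 lower for liver against muscle, and 0 to 1 higher over tissues in Korean native libraries. The lone library of a tissue is then assumed to vary like the others. ACAA2 reversed without Berkshire liver, to -3.85 against fat and -3.14 against muscle, and was 3.00 and 3.71 without Korean native liver. Breed counts in fat were 0 higher and 0 lower at 4-fold, and 2 lower with a minimum of 1 CPM, 3 with total counts and 3 with TMM factors of fat alone (2 higher and 1 lower at first). In liver 5 were lower with a minimum of 1 CPM and 1 at 4-fold (3 at first). In muscle 0 were higher with 10 CPM in both libraries, 2 with total counts and 1 at 4-fold (4 at first), and 5 were lower with total counts and 1 at 4-fold (3 at first). Dropping the breed term, which sets tissues against each other within a breed, kept the 6 counts of tissue calls within 1.5 times of those above.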

Other observations

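The respiratory chain, which takes up the electrons of fatty acid oxidation, differed between tissues in another way. Of 17 nuclear genes of oxidative phosphorylation, 9 were higher and 0 lower in muscle against fat, beside 9.95% and 6.43% of all genes (edgeR, adjusted p under 0.05). Liver against muscle gave 0 higher and 8 lower, beside 18.6% and 17.4% of all genes. Liver against fat gave 3 higher and 0 lower, beside 15.2% and 13.5%. All 17 were higher in Korean native muscle than in Berkshire muscle, with a median log2 ratio of 0.86 and 4 of them at least 2-fold apart. Over all genes 53.7% were higher there and 10.9% at least 2-fold. Of 11 genes of mitochondrial import and the matrix 11 were higher too (median 0.81). With total counts in place of TMM factors, 17 of 17 and 10 of 11 were higher, by medians of 0.55 and 0.51, and 0 of the 17 reached 2-fold. In liver all 17 were higher by a median of 0.25, beside 50.2% of all genes, and in fat 5 were higher and 12 lower. Each of these ratios rests on 1 library a breed, and skeletal muscle markers were higher in the same library by a median of 0.80.

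PDK4, a kinase that holds back the entry of glucose carbon into mitochondrial oxidation, was at 1060 and 25.2 CPM in fat, 327 and 110 CPM in liver and 3496 and 8.07 CPM in muscle of Berkshire and Korean native pigs. It was lower in the Korean native library in all 3 tissues, by a log2 difference of -5.25 ± 1.47 over tissues that did not pass (edgeR adjusted p = 0.439). LPIN1, a regulator and phosphatidate phosphatase, was at 345 and 202 CPM in fat, 46.6 and 32.6 CPM in liver and 99.0 and 74.5 CPM in muscle. CREB3L3, a liver transcription factor of the fasting response, was at 276 and 317 CPM in liver and at most 0.231 CPM elsewhere.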
